A study of Homo sapiens with 6 samples.

Results

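The 10 genes described here are subunits of the transcription factor AP-1 and immediate early genes, measured in DU145 cells. They comprise FOS, FOSB, FOSL1 and FOSL2 of the FOS family, JUN, JUNB and JUND of the JUN family, and EGR1, IER2 and DUSP1. The members were chosen by name, with the changes of their RNA in these data already known, and all 10 were found among the 27381 genes of the deposited table. What chose them is therefore the same FPKM values given below, which are a description and carry no test.

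AP-1 is a dimer of bZIP proteins, in which a leucine zipper joins the partners and a basic region contacts DNA. JUN proteins pair with each other or with FOS proteins, whereas FOS proteins need a JUN partner, so the AP-1 formed in a cell depends on which subunits are present. Immediate early genes are transcribed within minutes of growth factor or stress signals through MAPK, without new protein synthesis, and most of their mRNAs are short-lived. In epithelial cancer cells AP-1 is known for its part in proliferation, invasion and the response to growth factors.

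RNA was sequenced from 6 libraries of DU145, a human line from a metastatic, castration-resistant prostate cancer. There were 2 libraries in each of 3 conditions, and the authors deposited 1 column per condition of FPKM, a fragment count divided by transcript length and library size, so no spread between libraries and no test could be computed, and no difference has a replicate check. Scr cells received Cas9 with a scrambled sgRNA, CD24 KO cells had CD24 targeted by CRISPR/Cas9, and RCC2 KO cells had RCC2 targeted in the same way. All had been transfected with a Cas9-GFP plasmid, sorted for GFP and grown out from clones, and which clone gave which library is not given in the sources used here. The descriptions of the 2 libraries share 1 name stem within each condition, so both may come from 1 clone. Differences between clones and those due to the knockout could then not be told apart. The RCC2 KO column has the name of the first RCC2 KO library and may hold 1 library or both.

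For both targeted genes the RNA ran against the sample labels. The libraries labelled CD24 KO held 309 FPKM of CD24, beside 93.2 FPKM in Scr and 214 FPKM in RCC2 KO, and the FPKM of RCC2 was 37.8, 14.2 and 41.8 in the order Scr, CD24 KO and RCC2 KO. Clones were identified in the study's methods at the level of genomic DNA and protein, which these RNA values do not measure. Every direction below rests on the labels as given. The epithelial markers KRT8, KRT18, KRT19, EPCAM and CDH1 were at 27.9 to 336 FPKM in Scr, 44.9 to 149 FPKM in CD24 KO, where KRT8 and KRT18 were at least 2-fold lower and CDH1 (0.89) and KRT19 (0.43) had positive log2 changes, and 23.7 to 348 FPKM in RCC2 KO, with sums of 799, 500 and 843 FPKM. CDH1 was at least 2-fold lower in RCC2 KO than in CD24 KO, at -1.12 on the log2 scale. KRT8 (1.22) and KRT18 (1.11) were at least 2-fold higher in that comparison, and the median over the 5 epithelial markers was 0.38. The leukocyte markers PTPRC and CD3E were listed at 0 in every column, while the highest of 10 fibroblast and endothelial markers was at 0.678 FPKM. The leukocyte list had CD68, which is also a lysosomal protein of other cells, as its single member above 1 FPKM, at 37.1, 81.5 and 38.4 FPKM in the order Scr, CD24 KO and RCC2 KO. The mitochondrial ribosomal RNA RNR2 was listed at 26884 FPKM in Scr, at 0 in CD24 KO and at 22704 FPKM in RCC2 KO. The column sums were 451272, 388764 and 447005 FPKM. Scaling over protein-coding symbols, which leaves RNR2 out along with other noncoding RNA, moved the median of all genes by 0.14 in CD24 KO. The separate part of RNR2 in the values below was not tested. In such bulk RNA, fewer cells that express a gene and less of its RNA per cell cannot be told apart.

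The comparisons cover the 12822 genes that reached 1 FPKM in any column, as log2(FPKM + 1), a scale on which the change of low genes is understated. All 10 members passed this filter. A gene at least 2-fold higher or lower on that scale is counted as changed. Over the whole set, 2.67% of genes were higher by that measure and 3.03% lower in CD24 KO than in Scr. For RCC2 KO against Scr these shares were 0.406% and 0.796%, and for RCC2 KO against CD24 KO they were 4.02% and 4.3%. Both knockouts were set against the same Scr values, so an unusual Scr value moves both of its comparisons together.

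In the libraries labelled CD24 KO, 1 of the 10 members (FOS) was at least 2-fold lower and 1 (JUND) at least 2-fold higher. In those labelled RCC2 KO, FOS and JUNB were at least 2-fold lower and no member was at least 2-fold higher, with EGR1 just short of the minimum at -0.99 on the log2 scale, where JUNB had -1.01. Directly between the knockouts, JUND was the 1 member past the minimum, lower in RCC2 KO. Since the members were chosen with these changes known, nothing is read from their counts against the shares of all genes. The median log2 change over the 10 members was -0.21 in CD24 KO and -0.16 in RCC2 KO, beside -0.034 and -0.0036 over all genes compared. In each of these comparisons 6 members were lower and 4 higher than in Scr, near the shares of all genes that were lower, 52.9% in CD24 KO and 50.6% in RCC2 KO. Most members thus lay near their Scr level, and the differences of about 2-fold or more were those of FOS, JUNB, JUND and EGR1.

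**Figure D1:**
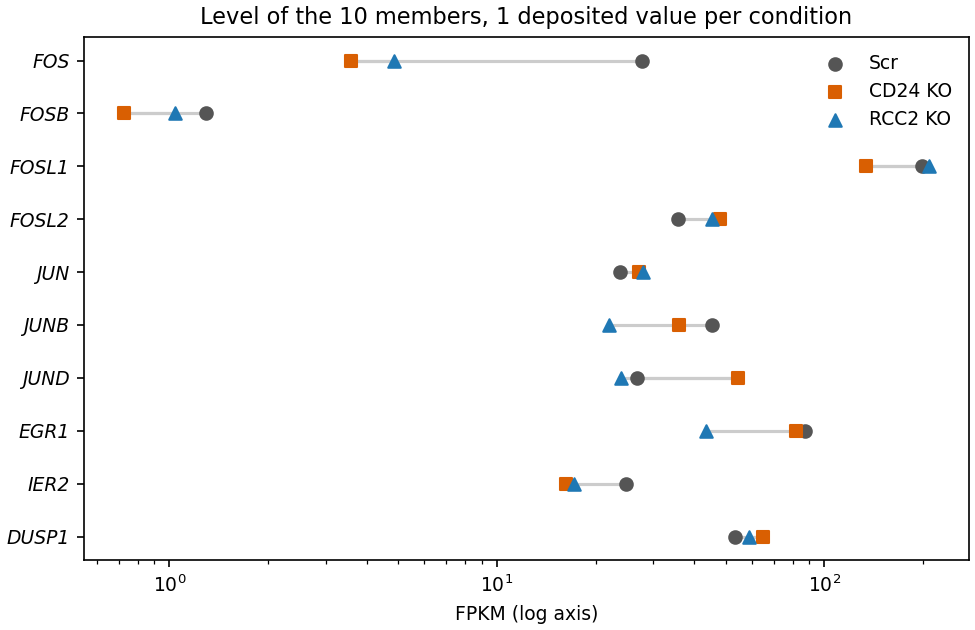
FPKM (log x axis) of the 10 members, with a row per gene and a marker each for Scr, CD24 KO and RCC2 KO. Each point is 1 deposited value, with no error bars because the table gives no value per library. FOS lies at 27.8 FPKM in Scr and below 5 FPKM in both knockouts, while FOSL1 is the highest member in every condition.

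The promoters of the 4 members that differed most are shown first, because FOS, JUNB and EGR1 were all lower in the libraries labelled RCC2 KO and JUND was higher in those labelled CD24 KO. Each sequence is the 250 bases before the RefSeq gene start, from GRCh38.p14, written 5′ to 3′ on the strand of the gene. FOS lies at chr14:75278578-75278827 on the plus strand, JUNB at chr19:12791236-12791485 on the plus strand, EGR1 at chr5:138465229-138465478 on the plus strand and JUND at chr19:18281623-18281872 on the minus strand. Capitals mark matches, on either strand, to the CArG box bound by SRF, the cyclic AMP response element (CRE, TGACGTCA) or its core TGACG, the EGR site (GCGNGGGCG) and the TATA box (TATAAA). The AP-1 site (TGANTCA) was also searched and had no match in these 4.
FOS: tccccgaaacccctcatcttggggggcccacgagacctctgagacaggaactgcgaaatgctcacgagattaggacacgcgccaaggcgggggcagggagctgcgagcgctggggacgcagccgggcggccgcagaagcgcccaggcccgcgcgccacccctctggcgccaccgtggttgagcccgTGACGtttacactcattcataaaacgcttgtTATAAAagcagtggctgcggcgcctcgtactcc
JUNB: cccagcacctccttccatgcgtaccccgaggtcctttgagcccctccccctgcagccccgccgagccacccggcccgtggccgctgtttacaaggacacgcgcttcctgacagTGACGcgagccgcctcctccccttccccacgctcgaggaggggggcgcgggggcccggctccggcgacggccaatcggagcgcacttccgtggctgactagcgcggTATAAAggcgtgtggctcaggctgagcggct
EGR1: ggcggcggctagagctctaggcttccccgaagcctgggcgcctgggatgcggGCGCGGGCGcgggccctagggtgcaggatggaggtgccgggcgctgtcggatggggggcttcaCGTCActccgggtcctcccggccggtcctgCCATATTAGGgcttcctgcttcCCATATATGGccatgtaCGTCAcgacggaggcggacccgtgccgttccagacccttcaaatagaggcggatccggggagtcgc
JUND: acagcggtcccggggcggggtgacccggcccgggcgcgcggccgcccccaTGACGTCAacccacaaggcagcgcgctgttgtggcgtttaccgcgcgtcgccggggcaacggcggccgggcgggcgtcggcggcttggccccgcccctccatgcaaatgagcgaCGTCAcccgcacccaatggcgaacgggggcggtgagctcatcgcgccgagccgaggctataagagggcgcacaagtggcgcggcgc

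RefSeq gave a promoter for 9 of the 10 members, FOSL1 being the exception. In the window from 250 bases before to 50 after the start, the CRE core TGACG was found on either strand in 9 of these 9 members, beside 24.6% of the 35116 promoters in the table. It lay 64 to 60 bases before the start in FOS and 137 to 133 bases before it in JUNB. The full CRE, which holds the core on both strands, was found in JUND and DUSP1, and in 1.85% of all promoters. Within this window the CArG box was found in EGR1 alone, at 2 places, 105 to 96 and 83 to 74 bases before the start. It was found in 1.29% of all promoters. Sites further upstream were not searched, so the lack of a match does not mean that a member has no such site. A TATA box was found in FOS, FOSB, JUNB and DUSP1, and in 11.5% of all promoters. EGR1 held the only EGR site among the members, beside 9.43% of all promoters, and FOSL2 the only AP-1 site, beside 7.71%. FOS, JUNB and EGR1 thus shared the CRE core, which JUND, with a change in the other direction in CD24 KO, also held.

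FOS encodes c-Fos, the classic inducible partner of JUN. Scr cells held 27.8 FPKM of FOS, the libraries labelled CD24 KO 3.58 FPKM and the libraries labelled RCC2 KO 4.84 FPKM. Scr stood apart and the knockouts lay close to each other. The FPKM ratio corresponds to a level 7.77-fold lower in CD24 KO and 5.74-fold lower in RCC2 KO, with log2 changes of -2.65 and -2.30. Between the knockouts the log2 difference was 0.35, with the higher value in RCC2 KO. In Scr, 75.2% of the genes compared had a lower FPKM than FOS, and this share was 23.3% in CD24 KO and 31.5% in RCC2 KO. The table places FOS on chromosome 14 from 75745481 to 75748937, where no other gene of the table overlaps it.

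The size of the FOS difference can be set against the rest of the table. Among the 9377 genes above 0 in every column whose highest value was at least 5 FPKM, FOS had the 9th lowest log2 change in CD24 KO and also the 9th lowest in RCC2 KO. The genes nearest to FOS, by the distance between their pairs of log2 changes against Scr, were RNA28S4, a 28S ribosomal RNA copy, and the histone genes HIST1H3B and HIST2H2AC. RNA28S4 was at 406 FPKM in Scr, 80.3 in CD24 KO and 71.1 in RCC2 KO, at a distance of 0.38 from FOS. HIST1H3B was at 10.8, 1.77 and 1.42 FPKM, at a distance of 0.56, and HIST2H2AC at 10.4, 0.201 and 0.563 FPKM, at a distance of 0.82. Ribosomal RNA and most histone mRNAs have no poly(A) tail, whereas FOS mRNA has one. Of the 8 genes with a lower log2 change than FOS in RCC2 KO, 7 were histone genes or structural RNAs without a tail, and in CD24 KO 2 of 8 were. That grouping was chosen after these values had been seen, and levels below Scr follow from how these genes were picked. The share of tailless RNAs among all the genes ranked was not computed, so nothing is read from these counts. Whether RNA selection differed between the Scr and the knockout libraries, and what part of the FOS fold would then be technical, was not tested.

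**Figure D2:**
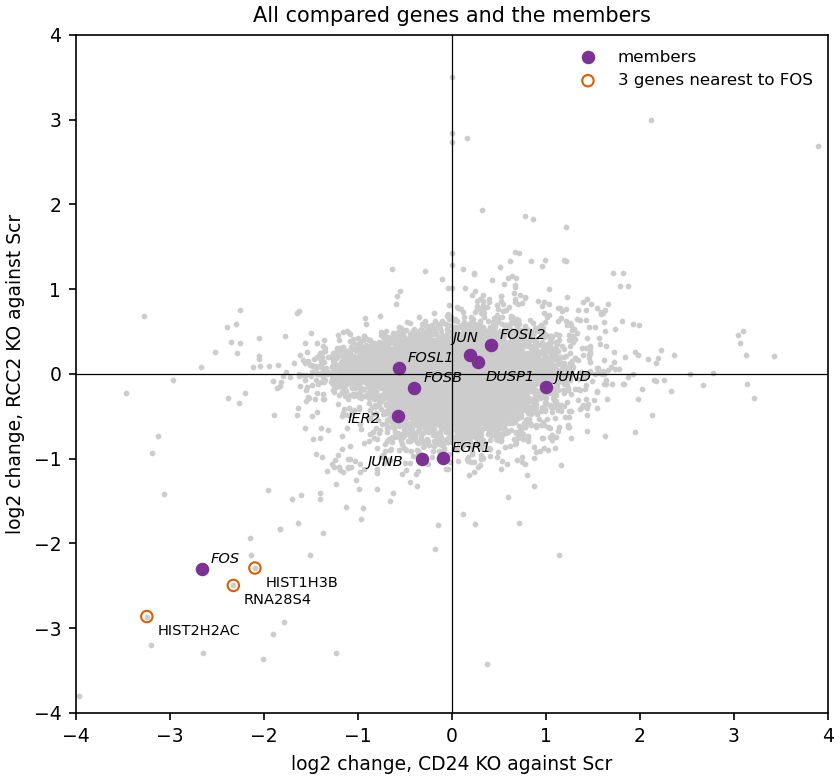
Log2 change of FPKM + 1 against Scr in CD24 KO (x axis) and RCC2 KO (y axis) for the genes compared (grey), with the members in purple and the 3 genes nearest to FOS circled. Both axes use the same Scr values, and 29 genes lie beyond the limits of 4. FOS sits apart from the other members at -2.65 and -2.30, beside ribosomal and histone RNA.

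No other FOS family gene was 2-fold changed in any comparison. FOSL1 encodes FRA-1, a subunit known for its high level in invasive epithelial cancer cells. FOSL1 was at 199 FPKM in Scr, 134 in CD24 KO and 208 in RCC2 KO, above 97.8% of the genes compared in Scr. Its CD24 KO value was the lowest, with a log2 change of -0.56, and its RCC2 KO value lay close to Scr, with a log2 change of 0.064. FOSL2, which encodes FRA-2, was at 35.7 FPKM in Scr, 48.1 in CD24 KO and 45.4 in RCC2 KO, with log2 changes of 0.42 and 0.34. It was thus higher in both knockouts than in Scr, by less than 2-fold, and its locus is also that of FLJ31356, listed below 1 FPKM. FOSB, another inducible member, was at 1.29, 0.728 and 1.04 FPKM likewise, and its log2 changes of -0.41 and -0.17 had the sign of those of FOS. Without a known depth, no order was read from levels this low. In the table FOSL1 lies on chromosome 11 from 65659607 to 65667997, FOSL2 on chromosome 2 from 28607276 to 28637516 and FOSB on chromosome 19 from 45971253 to 45978437.

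Because FPKM is scaled to transcript length, the levels of the subunits can be added. The FOS family summed to 264 FPKM in Scr, 187 in CD24 KO and 259 in RCC2 KO. FOSL1 made up most of it, with 75.4% in Scr, 71.9% in CD24 KO and 80.2% in RCC2 KO. FOS made up 10.5% in Scr, 1.92% in CD24 KO and 1.87% in RCC2 KO, whereas FOSL2 went from 13.6% to 25.8% and 17.5%. The ratio of FOSL1 to FOS was 7.15 in Scr, 37.5 in CD24 KO and 43.0 in RCC2 KO. FRA-1 and FRA-2 transcripts therefore outweighed FOS in every column, and most in the knockouts. The sum is one of RNA and says nothing of protein.

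JUNB and JUND, which encode weaker activators of transcription than JUN in many settings, stood apart in different columns. JUNB was at 45.2 FPKM in Scr, 36.1 in CD24 KO and 22.0 in RCC2 KO, so that the RCC2 KO value was the lowest. Its level was 2.06-fold lower in RCC2 KO than in Scr and 1.64-fold lower than in CD24 KO, with log2 changes of -1.01 and -0.69. JUND was at 26.8 FPKM in Scr, 54.6 in CD24 KO and 24.0 in RCC2 KO, and CD24 KO stood apart. Its level was 2.04-fold higher in CD24 KO than in Scr and 2.28-fold lower in RCC2 KO than in CD24 KO, with log2 changes of 1.00 and -1.15. JUN was at 23.8, 27.2 and 28.0 FPKM in the order Scr, CD24 KO and RCC2 KO, with log2 changes against Scr of 0.19 and 0.23. The table places JUN on chromosome 1 from 59246463 to 59249785, JUNB on chromosome 19 from 12902310 to 12904125 and JUND on chromosome 19 from 18390504 to 18392466. With a pseudocount of 5 neither gene passed the 2-fold minimum against Scr.

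The genes nearest to JUNB were IGSF8, PIK3CD-AS2 and LTBP1, at distances of 0.069, 0.15 and 0.15, and those nearest to JUND were LINC01515, LEPR and NCOA7, at 0.0069, 0.020 and 0.020. NCOA7, for example, was at 68.7 FPKM in Scr, 137 in CD24 KO and 61.0 in RCC2 KO, and IGSF8 at 18.8, 14.4 and 9.22 FPKM. Among the 9377 genes ranked above, JUND had the 213th highest log2 change in CD24 KO, and JUNB the 43rd lowest in RCC2 KO.

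**Figure D3:**
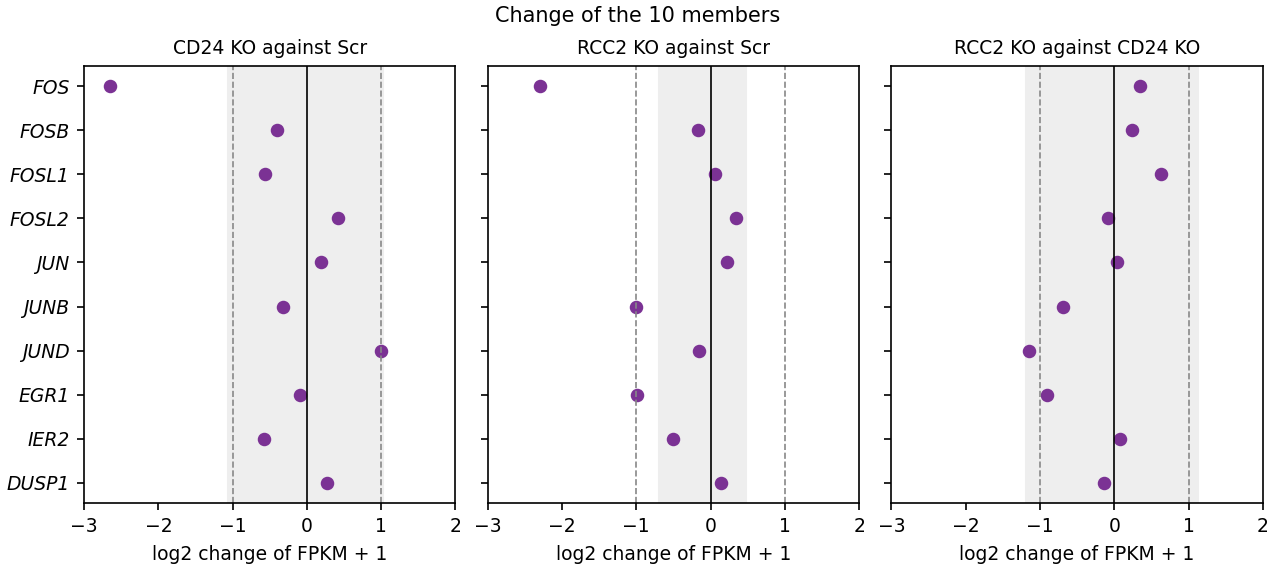
Log2 change of FPKM + 1 of the 10 members in CD24 KO against Scr, RCC2 KO against Scr and RCC2 KO against CD24 KO. Dashed lines mark 2-fold and the grey band holds the central 95% of all genes compared, from -0.69 to 0.48 in RCC2 KO against Scr from -1.07 to 1.03 in CD24 KO against Scr and from -1.18 to 1.12 in RCC2 KO against CD24 KO. JUND lies inside every band, at 1.00 in CD24 KO against Scr, -0.15 in RCC2 KO against Scr and -1.15 between the knockouts. FOS lies outside both bands against Scr, and JUNB (-1.01) and EGR1 (-0.99) outside that of RCC2 KO against Scr.

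The JUN family summed to 95.8 FPKM in Scr, 118 in CD24 KO and 73.9 in RCC2 KO. JUNB was its largest part in Scr, at 47.2%, and JUND in CD24 KO, at 46.3%, whereas JUN was the largest part in RCC2 KO, at 37.9%. The ratio of JUND to JUNB was 0.592 in Scr, 1.51 in CD24 KO and 1.09 in RCC2 KO. FOS family RNA exceeded JUN family RNA in every column, by a ratio of 2.75 in Scr, 1.58 in CD24 KO and 3.51 in RCC2 KO. This excess rests on FOSL1, since the FOS family without it summed to 64.8, 52.4 and 51.3 FPKM, below the JUN family in every column. The leading JUN subunit thus differed in each of the 3 columns, while FOSL1 led the FOS family in all 3. In RCC2 KO the lead of JUN was narrow, with JUND at 32.4% and JUNB at 29.7%. These shares were not corrected for GC content.

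**Figure D4:**
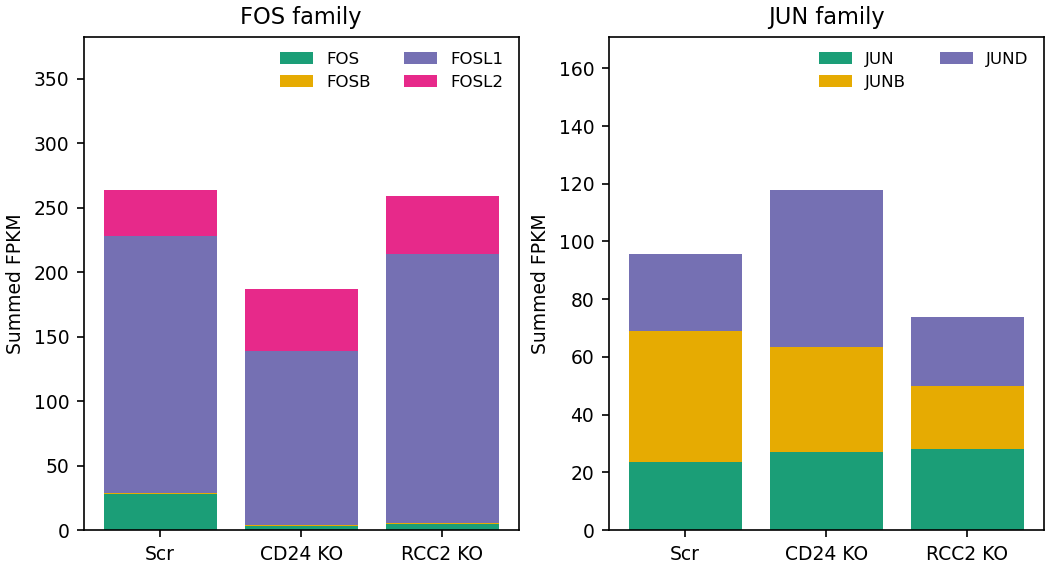
Summed FPKM of the FOS family (left) and the JUN family (right) in each condition, divided by gene. FOSL1 fills most of the FOS family bars, at 71.9% to 80.2%, and the largest part of the JUN family bar is JUNB in Scr, JUND in CD24 KO and JUN in RCC2 KO.

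EGR1, a zinc finger factor induced through SRF at its CArG boxes, was at 87.2 FPKM in Scr, 81.7 in CD24 KO and 43.4 in RCC2 KO. Its RCC2 KO value was 2.01-fold lower than Scr by the FPKM ratio and stood apart from the other columns. The log2 change in CD24 KO was -0.093, but 0.086 with quantile normalization, 0.053 with columns scaled over protein-coding genes and 0.012 after correction for GC content and length, so that its sign depended on the scaling. Against CD24 KO, the log2 difference of EGR1 in RCC2 KO was -0.90. IER2, a short nuclear protein of the early response, was at 24.8 FPKM in Scr, 16.3 in CD24 KO and 17.2 in RCC2 KO. It was lower than Scr in both, with log2 changes of -0.58 and -0.50, neither of them 2-fold. DUSP1, the phosphatase that switches MAPK off, was at 53.5, 64.9 and 58.9 FPKM, with log2 changes of 0.27 and 0.14. In the table EGR1 lies on chromosome 5 from 137801181 to 137805004, DUSP1 on chromosome 5 from 172195093 to 172198203 and IER2 on chromosome 19 from 13261282 to 13265718.

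The members differed in their transcripts. In the longest coding transcript of GENCODE 29, JUN, JUNB, JUND and IER2 had 1 exon, a structure found in 2.22% of the compared genes with such a transcript. GC content over the 10 members was 52.6% to 69.7%, with a median of 57.2% beside 48.4% over the compared genes. JUND was the richest in GC, above 99.7% of these genes, followed by JUNB at 64.9%. The 1169 genes richest in GC had median log2 changes of -0.073 and -0.11 in CD24 KO and RCC2 KO. After the median change of genes of like GC content and length was subtracted, JUNB was at -0.87 in RCC2 KO, no longer 2-fold, JUND at 1.07 in CD24 KO, and FOS at -2.56 and -2.29. The pentamer ATTTA, a mark of short-lived mRNA, occurred at least 3 times in the 3′ UTR of FOS, FOSB, FOSL2, JUN and DUSP1, 5 of the 10 members, close to the 46.6% of all these genes.

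Other genes of the same program were taken from 6 lists. Like the members, these lists were chosen with earlier results of these data known. Nothing is therefore read from their counts against the shares of all genes. Of 13 bZIP partners of AP-1, 9 were compared. JDP2, a repressor that binds JUN, was at 4.68 FPKM in Scr, 10.6 in CD24 KO and 4.96 in RCC2 KO, the 1 gene of this list past the 2-fold minimum in any comparison, with a log2 change of 1.03 in CD24 KO. The median log2 change of the list was 0.22 in CD24 KO and -0.037 in RCC2 KO.

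Of 28 other early response genes, 23 were compared. In CD24 KO, 18 of them were higher and 5 lower than in Scr (median log2 change 0.30), while 52.9% of all genes compared were lower. NR4A1, an orphan nuclear receptor of the early response, was at 8.62 FPKM in Scr, 37.0 in CD24 KO and 6.79 in RCC2 KO, with a log2 change of 1.98 in CD24 KO. SGK1, a serum-induced kinase, was at 3.22, 8.15 and 2.69 FPKM, with a log2 change of 1.12. In RCC2 KO, 8 were higher and 15 lower, beside 50.6% of all genes lower, with a median of -0.051, and NR4A2, a relative of NR4A1, was the 1 gene at least 2-fold lower. NR4A2 was at 5.80 FPKM in Scr, 10.03 in CD24 KO and 2.37 in RCC2 KO. Directly between the knockouts, 19 of the 23 were lower in RCC2 KO, beside 48.3% of all genes compared, with a median of -0.40, and NR4A1 at -2.28, NR4A2 at -1.71 and SGK1 at -1.31 were at least 2-fold lower. In CD24 KO the direction of NR4A1 and SGK1 was thus the opposite of that of FOS.

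The MAPK cascade with its SRF and ternary complex factors held no gene past the 2-fold minimum among 21 compared, the median being -0.18 in CD24 KO but -0.025 in RCC2 KO. The highest gene of this list, MAPK3, which encodes the kinase ERK1, was at 109 FPKM in Scr, 135 in CD24 KO and 76.8 in RCC2 KO. Among 14 compared feedback inhibitors of MAPK, likewise with none past the minimum, the medians were 0.11 and -0.068. DUSP5, a nuclear phosphatase of ERK, had the highest single value, 51.6 FPKM in CD24 KO, beside 29.4 in Scr and 28.1 in RCC2 KO. DUSP14 was above DUSP5 in Scr (31.1 FPKM) and RCC2 KO (39.5 FPKM) but below it in CD24 KO (21.3 FPKM). The 7 compared genes of AP-1 turnover also had none, with medians of -0.22 and 0.15, and their highest gene CNOT1, the scaffold of the deadenylase complex, was at 94.5, 81.0 and 88.9 FPKM.

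Of 19 textbook targets of AP-1, 13 were compared. In CD24 KO 2 were at least 2-fold higher and 2 at least 2-fold lower, beside 2.67% and 3.03% of all genes compared. By direction alone, 7 were higher and 6 lower than in Scr. CXCL8, which encodes interleukin 8, was just short of the minimum, with a log2 change of -0.997. IL6, a cytokine, was at 11.9 FPKM in Scr, 46.3 in CD24 KO and 11.6 in RCC2 KO, and CD44, a hyaluronan receptor, at 33.9, 86.8 and 47.7 FPKM. PLAUR, the urokinase receptor, was at 45.9, 20.2 and 34.3 FPKM and HMOX1, a heme oxygenase, at 88.7, 32.3 and 64.6 FPKM, each lowest in CD24 KO. Their log2 changes in CD24 KO were 1.87 for IL6, 1.33 for CD44, -1.15 for PLAUR and -1.43 for HMOX1. In RCC2 KO none of the 13 was 2-fold changed against Scr, beside 0.406% of all genes compared higher and 0.796% lower. By direction alone, 9 of the 13 were higher and 4 lower, while 50.6% of all genes compared were lower. Directly between the knockouts IL6 was lower in RCC2 KO, with a log2 change of -1.90. It was the 1 target past the minimum, beside 4.3% of all genes compared that were lower by that measure. The median of the list was 0.012 in CD24 KO and 0.16 in RCC2 KO, and the targets therefore went both ways where FOS was lower.

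**Figure D5:**
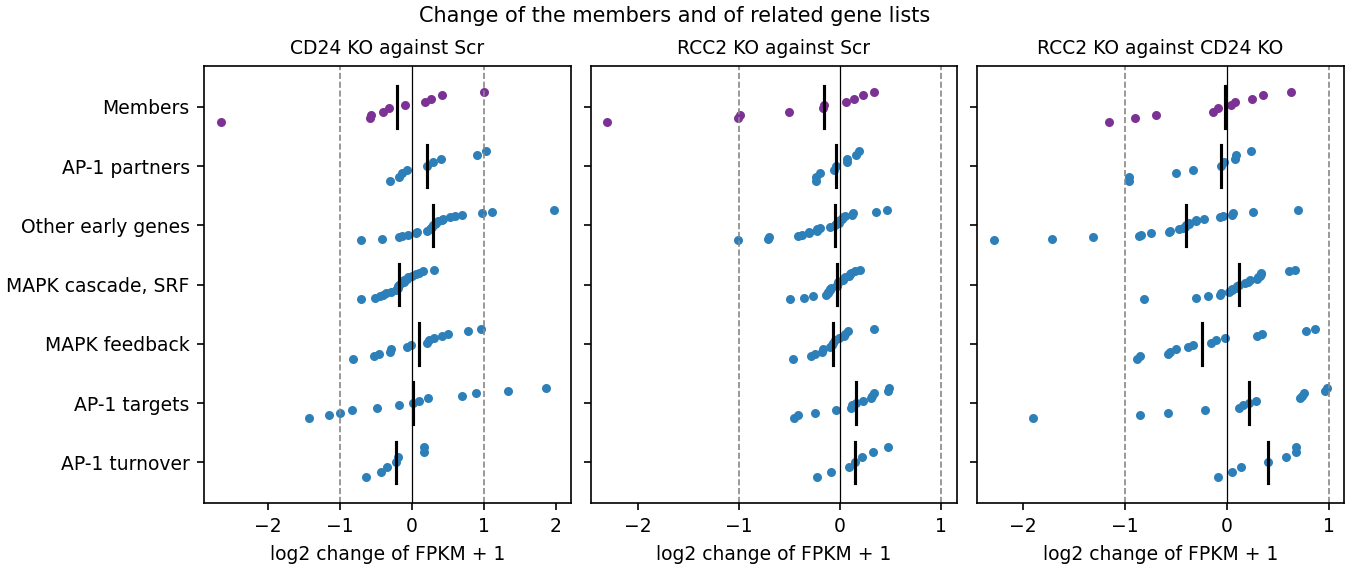
Log2 change of FPKM + 1 for each compared gene of the members and of the 6 related lists, in the same 3 comparisons, with a bar at each median and dashed lines at 2-fold. The other early response genes have a median of 0.30 in CD24 KO against Scr and of -0.40 in RCC2 KO against CD24 KO.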

How the data were processed

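RNA sequencing of DU145 cells gave 6 libraries, 2 per condition. The authors deposited 1 table of FPKM values with 3 columns, 1 per condition, and a locus per gene. HISAT, StringTie, Cufflinks and GATK are named in the submitters' processing notes, without versions. The library kit is a TruSeq RNA kit per the labels but a stranded mRNA kit in the study's methods. The genome build is not given in the sources used here. GRCh38 (GENCODE 29) was compared for the 24864 symbols it holds once, and 15.8% lay where the table puts them. None of the 10 members was among these, so loci are given as in the table, counted from 1. The promoter positions, given on GRCh38.p14, therefore cannot be set against these loci. Some marker and list genes are not reported here.

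The members and all gene lists were chosen with earlier results of these data known. Besides the members, genes were named when at least 2-fold changed in any comparison with a highest value of at least 5 FPKM. In a list with none, the gene with the highest single value was named. DUSP14 and CXCL8 were added for comparison. For FOS and each member 2-fold changed against Scr, the 3 nearest genes were named. Changes are differences of log2(FPKM + 1) as scaled by the authors. Symbols were matched through RefSeq synonyms, which left 1 turnover gene unmatched, and promoters came from RefSeq GRCh38.p14. GC content and length had a value for 91.1% of the genes compared. Alternatives were pseudocounts of 0.1 and 5, other filters, quantile normalization, median centring, scaling to 1000000 over protein-coding symbols, a 1.5-fold minimum and, added after the data were seen, a correction in 10 bins of GC content by 5 of length. Calculations were tested on simulated data. The table holds no counts, so depth is unknown and no interval is given. Python 3.11.15, NumPy 2.4.6, pandas 2.3.3 and matplotlib 3.10.9 were used.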

Additional observations from a re-analysis of the deposited data

How the results depend on the processing

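No paired analysis was possible because the table holds 1 value per condition, and for the same reason no library could be left out. FOS was at least 2-fold lower in both knockouts under all 8 other settings, from -2.92 to -1.94 in CD24 KO and from -2.50 to -1.74 in RCC2 KO. A pseudocount of 5 left 1 member past 2-fold in each knockout against Scr, by its construction. The correction for GC content and length left 1 in RCC2 KO, without JUNB. Between the knockouts, quantile normalization, scaling over protein-coding symbols and the GC correction each gave 2 members, JUND and EGR1, and a 1.5-fold minimum, passed upward by 13.8% and downward by 14.1% of all genes, gave 4. EGR1 was the third member past 2-fold in RCC2 KO with a pseudocount of 0.1. The median of the members in CD24 KO was -0.093 with at least 1 FPKM in every column, which leaves out FOSB, -0.049 with quantile normalization and -0.062 with scaling over protein-coding symbols. That scaling moved the median of all genes by 0.14 in CD24 KO. Between the knockouts the median was -0.18 and -0.16 under these scalings, beside -0.023. For the 7 FOS and JUN genes alone, the medians were -0.32 in CD24 KO and 0.038 between the knockouts, a reversed sign. For EGR1, IER2 and DUSP1 alone they were -0.093 in CD24 KO, -0.50 in RCC2 KO and -0.14 between the knockouts. Between the knockouts JUN changed sign under 3 settings and IER2 under 2. The causes were not tested.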
